A study of Mus musculus with 12 samples.

Results

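The subject is the list of m6A peaks called in Mettl14 conditional knockout (cKO) mouse limb buds at E12.5, that is, the places on RNA where an antibody against N6-methyladenosine (m6A) still enriched fragments after the knockout. Every row of the authors' cKO list was taken, whatever its position or height, which gave 46758 of the 87954 peaks deposited for both genotypes. The other 41196 peaks belong to the control list. Peaks were tied to genes by gene identifier, and each gene's level was the mean FPKM (a level scaled to transcript length and to library total) of the 3 cKO input libraries.

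In cKO limb buds both Mettl14 alleles were floxed (Mettl14 flox/flox), and in the controls, called cHet, 1 allele was floxed and the other wild type (Mettl14 wt/flox). The cHet buds are therefore not wild type. The sources used here name no Cre driver or the cells it acts in, and do not say whether a replicate pooled embryos. Each genotype had 3 biological replicates of IP, the antibody-enriched RNA, and 3 of input, the same RNA without enrichment, 12 libraries in all. The title of the series places the work in cartilage formation and names a GDF5, RUNX and extracellular matrix axis.

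m6A is laid down on nascent messenger RNA by a complex in which METTL3 carries the catalytic site and METTL14 holds the RNA, with WTAP, VIRMA, RBM15, ZC3H13 and HAKAI as partners. The mark is known to gather near stop codons, in 3′ UTRs and in long internal exons, mostly within a short consensus that ends in AC, and YTH-domain proteins bind it and can shorten the life of the RNA. Antibodies against m6A also bind N6,2′-O-dimethyladenosine (m6Am), which can stand beside the cap of an RNA and is written by another enzyme, PCIF1.

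The label of the list was checked against the data first. Mettl14 itself was at 2.67, 3.07 and 2.63 FPKM in the cKO input libraries, against 5.08, 4.54 and 4.39 FPKM in the cHet input libraries. The genotypes did not overlap, and the fall of 0.58 on the log2(FPKM + 1) scale passed the test (SE 0.0791, adjusted p = 0.00289, limma), with the cKO mean at 59.8% of the cHet mean. The cKO list is not the shorter one: it held 46758 peaks on 16584 genes, against 41196 peaks on 16615 genes in the cHet list. Its enrichment was lower, with a median log2 of IP over input of 1.59 (3.02-fold), against 1.87 (3.64-fold) in the cHet list. The enrichment, its p and its adjusted p are the authors' own values for each peak. There is 1 list per genotype, so no replicate stands behind a peak and no test was made between the lists. The sources used here do not say how replicates were combined or how IP was scaled to input.

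The input libraries summed to 237288 to 255907 FPKM in cKO and 261691 to 275299 FPKM in cHet, and 13337 to 13622 genes per library had at least 1 FPKM. Correlations of log2(FPKM + 1) across genes were 0.979 to 0.986 within cKO, 0.976 to 0.989 within cHet and 0.9503 to 0.971 between genotypes. Read depth is unknown, since the files used here give no counts. In bulk tissue, fewer cells of a type and less RNA per cell cannot be told apart.

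The base at which an RNA starts is shown first, because the antibody also binds cap-adjacent m6Am, which needs an A there. Of the cKO peaks, 544 began exactly at a RefSeq transcript start (GRCm38.p6). Of these, 310 were annotated at a start codon, 103 in the 5′ UTR, 69 at a stop codon and 50 in exons of noncoding RNAs. The 6 with the highest enrichment among genes of at least 1 FPKM are given 5′ to 3′ on the transcript strand, as 30 bases of RefSeq sequence in which the capital, at position 16, marks the start base.
Anks1: tcccggaagtgacgcGccgccagggagtgg
1110059G10Rik: tcactaacacggtctAcgtcagaagtccgc
Pgrmc2: ctggtgggcagggccGcgggcttggggagg
Rchy1: gcggctcgcagcagcGcccgccagacgacg
Usp49: ggcaacccgaggagaTgggccctgggaatt
Bccip: acgggggcgggactcGcgcaggcgcagtgt
The windows lie on GRCm38.p6 at chr17:27909291-27909320 on the plus strand for Anks1, chr9:122950986-122951015 on the minus strand for 1110059G10Rik and chr3:41083032-41083061 on the minus strand for Pgrmc2. Those of the other genes lie at chr5:91963054-91963083 on the minus strand for Rchy1, chr17:47630675-47630704 on the plus strand for Usp49 and chr7:133709318-133709347 on the plus strand for Bccip. Their cKO peaks had log2 enrichments of 4.33 for Anks1, 3.81 for 1110059G10Rik, 3.76 for Pgrmc2, 3.37 for Rchy1, 3.29 for Usp49 and 3.25 for Bccip. Of these 6 starts, 1 is an A, that of 1110059G10Rik. From start to end, introns included, these peaks ran 3772, 394, 12516, 598, 19580 and 5888 bases in the same order. Each peak has 1 enrichment value for all of that length, so the value is not located at the start base.

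Across all 544 peaks that begin at a start, the first base was A in 33.3%, C in 13.2%, G in 45.4% and T in 8.09%. Over all 32817 RefSeq starts A stood first in 34.4% and G in 35.6%. Among genes of at least 1 FPKM whose 5′ end is a RefSeq start, A came first in 31.7% of the 479 with a cKO peak beginning there and in 26.7% of the 2494 without. The median log2 enrichment was 1.97 for 181 peaks with a first A, 1.98 for 72 with C, 1.87 for 247 with G and 1.78 for 44 with T. Peaks with a first A thus stood level with those with C and above those with G or T, and these differences were not tested. The letters GGAC, 1 form of the m6A consensus, stood in the first 50 transcribed bases of 18.9% of these peaks' transcripts and of 18.9% of all RefSeq starts, read on the transcript strand only. GAAC stood in 13.97% of these peaks' transcripts and in 14.6% of all RefSeq starts. A letter match is not a methylated site, and these windows cover only the 5′ ends.

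Enrichment in the cKO list ran over a wide range. The lowest log2 value was 0.50, which is the floor of the list, the lower quartile 1.19, the upper quartile 2.14 and the highest 9.003. At least 4-fold enrichment (log2 of 2) was reached by 14242 cKO peaks (30.5%), against 18608 cHet peaks (45.2%). Peaks of log2 3 or more numbered 2688 (5.75%) in the cKO list and 6977 (16.9%) in the cHet list. An adjusted p under 1e-05 was listed for 87.8% of cKO peaks and 88.0% of cHet peaks, so the lists differ in height more than in the share of peaks past that p. By biotype, 39379 cKO peaks (84.2%) lay on protein-coding transcripts with a median log2 of 1.57, 767 on lincRNAs with 2.02, and 1287 on antisense transcripts with 1.89. The sources used here do not say whether strand was used, so enrichment on a transcript and on its antisense partner may not be separable.

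**Figure D1:**
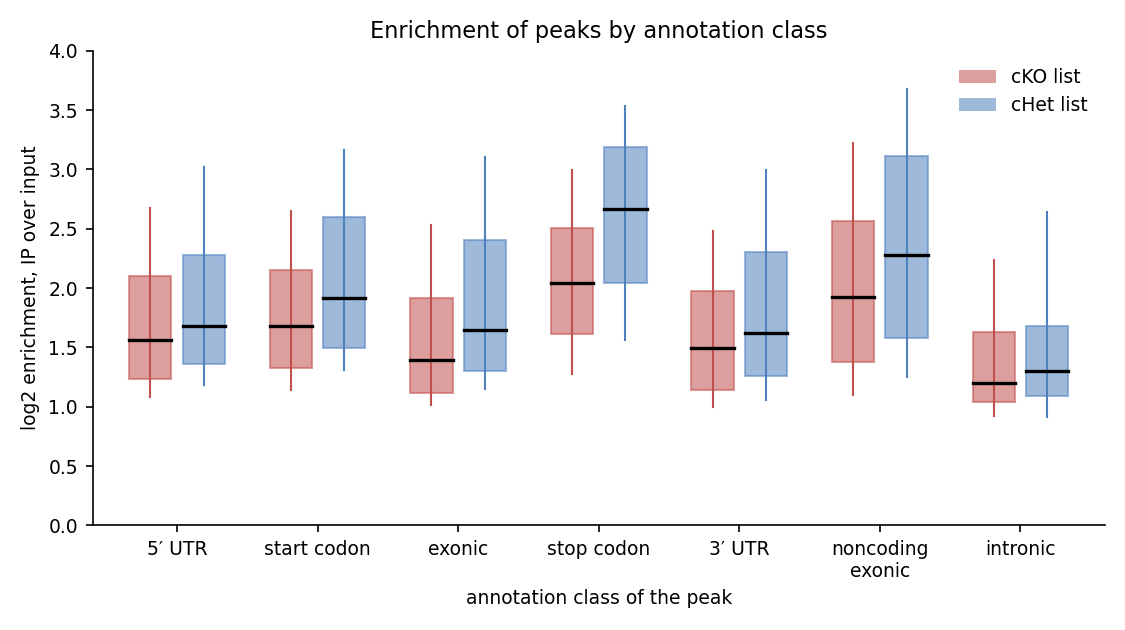
Log2 enrichment of IP over input (vertical axis) of the peaks of each annotation class, cKO list left of cHet list, with the box from lower to upper quartile, the line across it at the median and the whiskers from the 10th to the 90th percentile. The cKO median lies below the cHet median in all 7 classes, with the widest gap at stop codons, 2.04 in cKO and 2.66 in cHet.

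By position on the transcript, 17443 cKO peaks (37.3%) lay in 3′ UTRs, 8964 (19.2%) in coding exons away from the codon ends, 7106 (15.2%) over stop codons and 4595 (9.83%) over start codons. Exons of noncoding RNAs held 3967 (8.48%), 5′ UTRs 2287 (4.89%) and introns 2254 (4.82%). Stop-codon peaks had the highest median enrichment among these classes, log2 2.04 (4.12-fold) in the cKO list, against 2.66 (6.34-fold) over 7793 stop-codon peaks in the cHet list. The share of stop-codon peaks of at least 4-fold was 52.4% in cKO and 76.5% in cHet. Noncoding RNA exons followed with a median of 1.92 in cKO and 2.28 in cHet.

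Start-codon peaks stood at a median of 1.68 in cKO and 1.92 in cHet, with 4595 and 3400 peaks. For 5′ UTR peaks the medians were 1.56 in cKO and 1.68 in cHet, for 3′ UTR peaks 1.49 and 1.62, and for exonic peaks 1.39 and 1.65. Intronic peaks were weakest, at 1.20 in cKO and 1.30 in cHet, and 60.6% of the cKO ones had an adjusted p under 1e-05, against 98.0% of the cKO stop-codon peaks. The stop codon class was the only one of these 7 in which the cKO list held fewer peaks than the cHet list. Each peak has 1 class, so a cHet stop-codon peak can lie over cKO peaks of another class. On Rbm15, for example, the cHet stop-codon peak overlapped cKO peaks annotated in the 3′ UTR. The part of this in the class counts was not tested.

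The order of the classes was also read within single genes, so that both classes come from the same gene. Each class stood with its strongest peak in the gene. In the cKO list 17443 3′ UTR peaks lay on 9819 genes and 7106 stop-codon peaks on 7041. In the cHet list it was 15052 on 9024 and 7793 on 7729. A class with more peaks per gene has more values to take the highest from, and the part of peak number was not tested. Of 3619 genes with both a stop-codon and a 3′ UTR peak in the cKO list, 58.7% had the stop-codon peak stronger, by a median of 0.17 log2 units. In the cHet list it was 75.8% of 3551 genes, by a median of 0.71. Against the start codon, the stop codon was stronger in 58.5% of 2181 genes in cKO (median difference 0.17) and in 67.3% of 1778 genes in cHet (0.42). Against coding exons it was stronger in 67.6% of 2528 genes in cKO (0.36) and in 69.9% of 2345 genes in cHet (0.51). The start codon, set against the 5′ UTR of the same gene, was stronger in 37.6% of 436 genes in cKO and in 48.7% of 355 genes in cHet. The stop codon thus stayed the stronger side in most genes of the cKO list, by smaller margins than in the cHet list.

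A gene with a cKO peak had 2.81 peaks on average, with a median of 2 and a maximum of 20, against a mean of 2.47 and a maximum of 16 in the cHet list. In the cKO list 4748 genes (28.6%) had 1 peak, against 5719 (34.4%) in the cHet list. At least 5 peaks were listed for 2641 genes (15.9%) in cKO and 1829 genes (11.01%) in cHet, and at least 10 for 153 genes in cKO and 74 in cHet. Longer genes carried more peaks: Spearman's rho between gene length and number of cKO peaks was 0.526 over 12248 genes of at least 1 FPKM, a description across genes, which are not independent replicates. Of 3068 genes of up to 5 kb, 64.2% had a cKO peak, with 1.62 peaks per gene that had one. Of 1514 genes over 100 kb, 99.4% had a peak, with 4.84 peaks per gene. The strongest peak hardly moved with length (rho 0.054).

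Dst, which encodes the giant cytoskeletal linker dystonin, carried the most cKO peaks, 20 of them, against 14 in the cHet list. Its level was 3.29, 2.89 and 3.15 FPKM in cKO input, against 1.96, 1.89 and 2.27 FPKM in cHet input. The cKO libraries all lay above the cHet libraries, with a log2 change of 0.43 (SE 0.0792, adjusted p = 0.00721, limma). Its strongest peak was exonic in both lists, at log2 3.41 in cKO and at another place, with 3.54, in cHet. Macf1, which encodes a related actin and microtubule crosslinker, had 18 cKO peaks against 13. Stard9, which encodes a mitotic kinesin, had 18 against 10. The imprinted antisense RNA Kcnq1ot1, which silences neighbouring genes on the paternal chromosome, had 18 cKO peaks against 6 in cHet, at 0.265, 0.394 and 0.459 FPKM in cKO input and 0.572, 0.323 and 0.437 FPKM in cHet input. These input levels overlapped and lay under the 1 FPKM needed for the test. The muscle genes Ttn and Neb, which encode the sarcomere proteins titin and nebulin, had 16 and 15 cKO peaks, against 15 and 12 cHet peaks.

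The deposited peaks give a start and an end that include any intron between, so span is not the length of enriched RNA. The median span in the cKO list was 675 bases, against 750 in the cHet list, with a lower quartile of 300 and an upper quartile of 3633 in cKO. Spans over 10 kb made up 5964 cKO peaks (12.8%) and 4983 cHet peaks (12.1%). Start-codon peaks were long most often, 33.6% over 10 kb in cKO, followed by exonic peaks with 20.95%, 5′ UTR peaks with 16.8% and stop-codon peaks with 15.9%. It was 4.19% for 3′ UTR peaks and 0.71% for intronic peaks. The widest cKO peak, assigned to Ctbp2, ran 2722249 bases over chr7:130266100-132988348 (mm10) with a log2 enrichment of 1.88. The next widest, on Erc2, spanned 561241 bases.

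Of the 13517 genes with at least 1 FPKM in cKO input, 12248 (90.6%) carried a cKO peak, and 90.1% to 91.2% did when the level was read in 1 library at a time. The share was 3.57% among 2911 genes listed at 0, 50.1% between 0.1 and 1 FPKM, 85.5% between 1 and 5 FPKM and 94.9% between 10 and 20 FPKM. It was 89.9% among 328 genes over 100 FPKM. In the cHet list the shares over the same genes were 3.78%, 51.8%, 84.2%, 93.9% and 85.4%. Above 1 FPKM, the level said little about the enrichment: Spearman's rho was -0.086 with the strongest peak and -0.042 with the number of peaks (12248 genes, a description). The mean number of cKO peaks was 3.37 between 5 and 10 FPKM and 1.99 over 100 FPKM. The median strongest peak moved between 2.03 and 2.19 over the 6 bins from 1 FPKM up in cKO. In the cHet list it was 2.72 in the lowest of these bins and 1.98 in the highest.

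**Figure D2:**
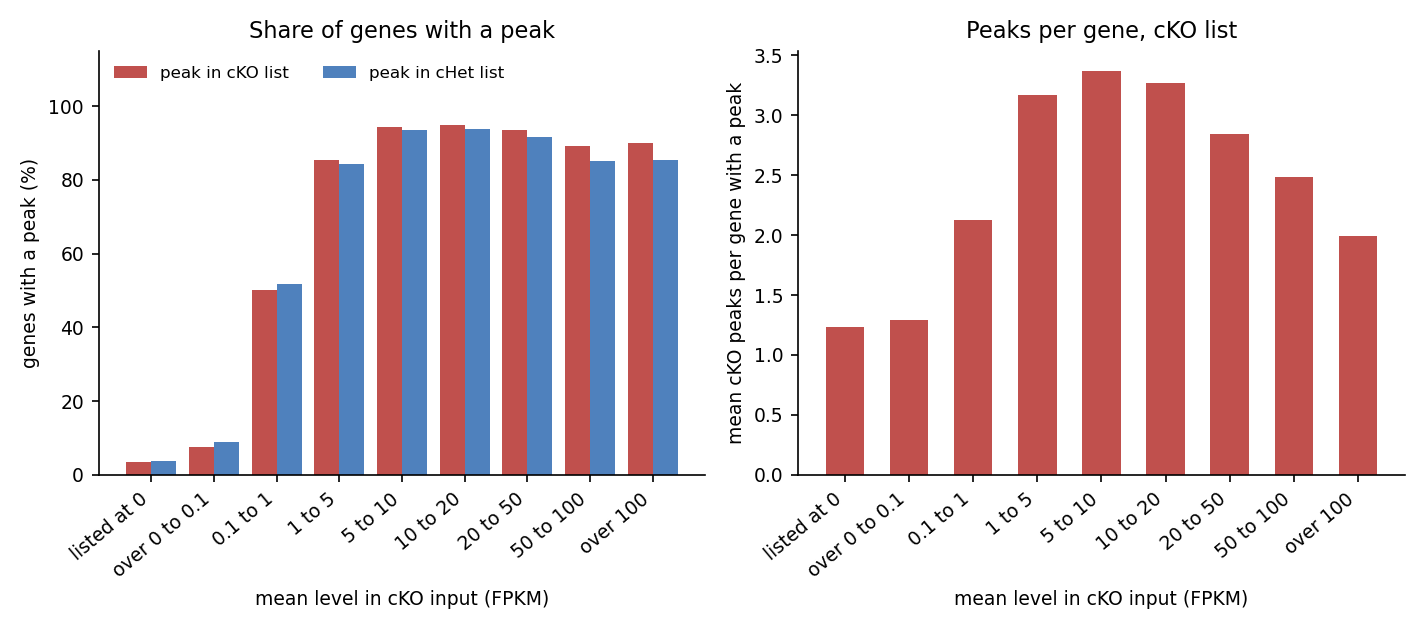
Genes binned by mean FPKM in the 3 cKO input libraries, with the share of genes that have a peak in the cKO and cHet lists (left, percent) and the mean number of cKO peaks per gene with a peak (right). From 1 FPKM up, 85.5% to 94.9% of genes per bin have a cKO peak, and the mean number is 3.37 between 5 and 10 FPKM and 1.99 over 100 FPKM.

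Among the most abundant genes with a cKO peak, Eef1a1, which encodes the translation elongation factor eEF1A, was at 5441, 4674 and 4827 FPKM in cKO input and 4843, 4945 and 4464 FPKM in cHet input. Its single peak had a log2 of 1.44 in cKO and 2.17 in cHet. Hbb-y, the embryonic beta-like globin of primitive red cells, was at 2973, 3926 and 7260 FPKM in cKO input, against 3863, 5361 and 4384 FPKM in cHet input, with a peak of 1.97 in cKO and 1.55 in cHet. The globin Hba-a2 had a cKO peak of 2.02 and none in the cHet list. Its relative Hba-a1 had 1 cKO peak, at 1.88, and 2 cHet peaks, the stronger at 1.63. Reads that match both genes could place a peak on either, which was not tested. Ptma, which encodes the chromatin-associated prothymosin alpha, had 2.99 in cKO and 2.76 in cHet. Of the 10 most abundant genes with a cKO peak, 9 had their strongest peak at the stop codon.

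The most abundant gene without a cKO peak was Actg1, cytoplasmic gamma actin, at 520, 539 and 471 FPKM in cKO input and 457, 518 and 552 FPKM in cHet input. The genotypes overlapped. It had 2 peaks in the cHet list, the stronger at log2 1.46. Of the 10 most abundant genes without a cKO peak, the other 9 were mt-Atp6, a mitochondrial ATP synthase subunit, and gene models of 57 to 1849 bases known by a clone or pseudogene name, such as Gm23935 and Rps10-ps2.

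The single highest enrichments in the cKO list, among genes of at least 1 FPKM, were on Gm13696 (7.62, exonic), Gm11007 (6.60) and Syncrip (6.51). Gm13696 was at 7.08, 3.20 and 8.05 FPKM in cKO input and 8.06, 3.86 and 1.21 FPKM in cHet input, and its 1 cHet peak, at 0.98, lay elsewhere on the gene. Syncrip, which encodes an hnRNP protein that binds messenger RNA, was at 30.4, 31.8 and 34.5 FPKM in cKO input and 39.2, 33.7 and 27.7 FPKM in cHet input. Its 5′ UTR peak at chr9:88481036-88482566 (mm10) had 6.51 in cKO, and the gene's strongest cHet peak had 6.16. Input levels of both genes overlapped between genotypes. At stop codons the highest were Gapdh, a glycolytic enzyme (4.66), Rpl30, a protein of the large ribosomal subunit (4.63), and Bhlha9, a bHLH transcription factor of limb development (4.54). Gapdh and Rpl30 have processed pseudogenes that could take part of their reads. Col15a1, a basement-membrane-zone collagen, led the start-codon peaks (4.59) and Tom1, an endosomal sorting protein, the 3′ UTR peaks (5.28).

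Most cKO peaks lay where the control list has one too. With an overlap of at least 1 base on the same strand, 37197 cKO peaks (79.6%) met a cHet peak and 9561 (20.4%) did not. From the other side, 35985 cHet peaks (87.4%) met a cKO peak and 5211 did not. Stop-codon peaks of the cKO list overlapped most often (96.6%), then 3′ UTR (82.6%) and start-codon peaks (80.5%), and intronic peaks least (50.8%). The cKO peaks without a cHet partner had a median log2 of 1.14 and a median span of 350 bases, against 1.73 and 800 bases for those with one. By gene, 11962 of the 13517 genes at or above 1 FPKM (88.5%) had a peak in both lists, 286 (2.12%) in the cKO list only and 108 in the cHet list only.

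Some control peaks stood as several in the cKO list. Of the cHet peaks that met a cKO peak, 3390 (9.42%) met 2 or more. These were taller, with a median log2 of 2.69 against 1.85 for cHet peaks that met a single cKO peak. They were also longer, with a median span of 3075.5 bases against 930 for all cHet peaks that met one. Of the cKO peaks that met a cHet peak, 2586 (6.95%) met 2 or more, with a median log2 of 1.88 against 1.72. Their median span was 3922.5 bases, against 800. A longer span can meet more peaks, and the part of span was not tested. Vcan, which encodes the matrix proteoglycan versican, is an example: 4 of its cKO peaks, at log2 1.75, 1.67, 1.13 and 2.06, lay within a single cHet exonic peak of 3.17 at chr13:89684504-89710836 (mm10).

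At the 37197 cKO peaks with a cHet partner (the longest overlap where there were several), the median log2 was 1.73 in cKO and 2.07 in cHet. The median difference, cKO minus cHet, was -0.18 as deposited and 0.09 once each list was centred on its own median, which shifts all differences by 0.27, so the direction over all peaks rests on how the lists are scaled. A cKO value lower by at least 1 log2 unit (2-fold) was found for 6886 peaks, 18.5% of those compared. A value higher by as much was found for 422 (1.13%). With centred lists these shares were 11.04% lower and 2.63% higher. Over the 28294 peaks with 1 partner in each list the median difference was -0.09, with 3249 (11.5%) lower and 309 (1.09%) higher by that much.

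By class, stop-codon peaks had the lowest median difference, -0.49, or -0.22 with centred lists. The share of stop-codon peaks lower by at least 1 unit was 25.1%, or 13.1% with centred lists, where exonic peaks had the higher share (14.96%). For exonic peaks the median was -0.18 with 22.1% lower by that much as deposited, and for 3′ UTR peaks -0.14 with 16.3%, and both medians were above 0 with centred lists (0.10 and 0.13). Start-codon peaks stood nearly level as deposited (-0.01, 13.3% lower by at least 1 unit) and 0.26 higher in cKO with centred lists. Among the 7 classes above, the stop codon was the only one with a median below 0 both ways.

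**Figure D3:**
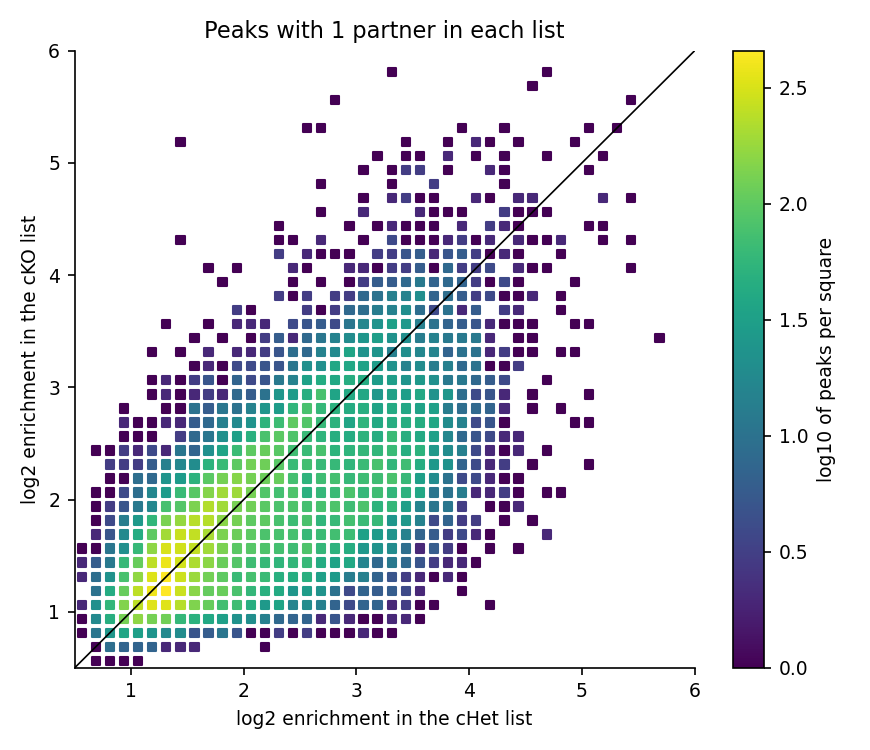
Log2 enrichment at the peaks with 1 partner in each list, cKO on the vertical and cHet on the horizontal axis, with the colour of a square giving the log10 of its number of peaks and the line marking equal values (8 of the 28294 pairs lie outside the plot). Of 4666 pairs at log2 3 or more in cHet, picked by that value, the cKO values have a median of 2.54.

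The spread of pairs that were tall in a list is given as a description, since those pairs were picked by that value. Of 4666 pairs at log2 3 or more in cHet, 1971 (42.2%) were lower by at least 1 unit in cKO, and 1243 (26.6%) lay within 0.5. Of 1947 pairs at log2 3 or more in cKO, the cHet median was 3.25, 1230 (63.2%) lay within 0.5, and 170 (8.73%) were higher in cKO by at least 1 unit. The same cut of log2 3 was passed by 5.75% of all cKO peaks and 16.9% of all cHet peaks. The 2 sets of pairs are therefore not alike, and no direction is drawn from them. The strongest peak per gene had a median of 2.15 in cKO and 2.63 in cHet over 11962 genes of at least 1 FPKM. It was lower in cKO in 8148 of them (68.1%), or in 52.8% with centred lists.

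The largest drops at pairs with 1 partner each included Cdh11, a cadherin of mesenchymal cells, whose stop-codon peak was at 1.28 in cKO and 3.76 in cHet. Cdh11 was at 113, 117 and 128 FPKM in cKO input, against 71.3, 65.9 and 60.6 FPKM in cHet input, so the RNA with the lower enrichment was the more abundant. Osr2, a transcription factor of limb joints, had 1.04 in cKO and 3.48 in cHet at an intronic peak of 200 bases. Sec31a, a COPII coat subunit, had 1.22 in cKO and 3.89 in cHet at an intronic peak of 175 bases. In the other direction, an intronic peak of Srp54b, a signal recognition particle gene, was at 5.24 in cKO and 1.42 in cHet. A 5′ UTR peak of Itsn1, an endocytic scaffold, was at 6.28 in cKO and 3.29 in cHet. Itsn1 input did not separate the genotypes, with 4.16, 4.35 and 4.35 FPKM in cKO and 4.22, 4.50 and 4.39 FPKM in cHet.

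Genes were then grouped by role, with the strongest peak of each gene set beside the same value in cHet. For scale, over all 15452 genes with a peak in both lists the medians were 2.21 in cKO and 2.68 in cHet, and 66.3% of genes were lower in cKO, or 51.2% with centred lists. In 74.4% of these genes the strongest cKO peak overlapped the strongest cHet peak, and in the others the values come from different places on the gene. Over all shared peaks 18.5% were lower in cKO by at least 1 unit. Shared peaks were counted per cKO peak, so a cHet peak that met several cKO peaks was counted more than once. With 1 partner in each list the share was 11.5%, and that count was not made by gene group.

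**Figure D4:**
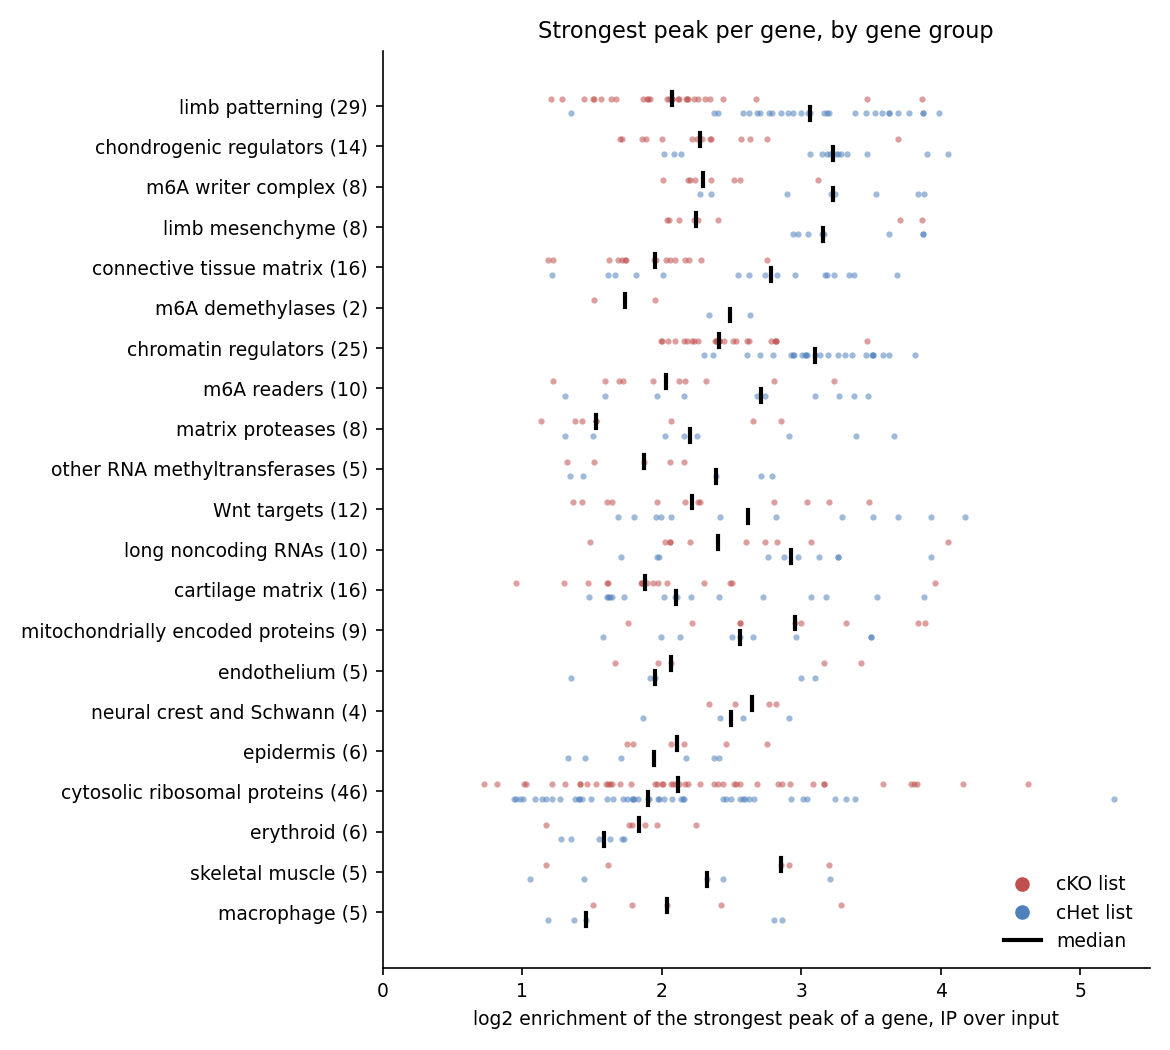
Log2 enrichment of the strongest peak of each gene (points) and the median (black bar) by gene group, cKO list above cHet list, over the number of genes with a peak in both lists that stands in parentheses. Limb patterning has a median of 2.07 in cKO and 3.06 in cHet, while the medians of the endothelial, epidermal, muscle and erythroid markers, the ribosomal proteins and the mitochondrial genes are higher in cKO.

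The writer complex was itself still marked. All 8 of its genes had cKO peaks, 31 in all against 26 in cHet, with a median strongest log2 of 2.30 in cKO and 3.23 in cHet, lower in cKO for 7 of 8 (5 of 8 with centred lists). Rbm15, which guides the complex to RNA, was at 9.36, 10.6 and 11.9 FPKM in cKO input, against 4.07, 3.92 and 3.02 FPKM in cHet input. The cKO libraries lay far above the cHet libraries (log2 change 1.32, SE 0.118, adjusted p = 9.36e-04, limma), and its strongest cKO peak, exonic, had 2.19 against 3.69 in its cHet partner. Wtap, the adaptor that brings the complex to nuclear speckles, had 2.36 in cKO and 3.54 in cHet, and Rbm15b, the paralog of Rbm15, 2.56 in cKO and 3.84 in cHet. Mettl3, the catalytic subunit, was the exception, at 2.52 in cKO and 2.36 in cHet, with 4 and 1 peaks.

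Mettl14 RNA kept 5 peaks in cKO against 7 in cHet, of which 4 were in the 3′ UTR and 1 over the start codon. The strongest, at chr3:123368297-123368971 (mm10), had 2.01 in cKO, and its cHet partner 1.65. The other pairs were 1.62 in cKO and 2.27 in cHet, 0.99 and 1.99, 1.44 and 1.39, and, for the start-codon peak of 11193 bases, 1.71 and 1.40. They went both ways, and the peaks rest on an RNA whose input was lower in cKO.

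The 10 m6A readers had a median strongest peak of 2.03 in cKO and 2.71 in cHet, lower in cKO for 7 of 10 (4 of 10 with centred lists). Peak by peak they stood otherwise: of their 32 shared peaks 14 were lower and 18 higher in cKO, with a median difference of 0.02, or 0.29 with centred lists. Ythdf2, a cytoplasmic reader that leads RNA to decay, was at 41.7, 42.3 and 42.7 FPKM in cKO input, against 20.8, 19.8 and 19.3 FPKM in cHet input. Its input libraries separated fully (log2 change 1.05, SE 0.0526, adjusted p = 3.52e-04, limma), and its stop-codon peak was 1.69 in cKO and 3.38 in cHet. Ythdf1, its cytoplasmic paralog, had 1.26 in cKO at an exonic peak and 3.10 in its cHet partner, while a 3′ UTR peak had 1.72 in cKO and 1.52 in cHet. Ythdc1, the nuclear reader, had peaks that went both ways: its strongest cKO peak had 3.24 against 3.02 in its cHet partner, and its strongest cHet peak, at 3.27, had a cKO partner of 2.15. The demethylase Fto had 1.96 in cKO and 2.64 in cHet. The stop-codon peak of the demethylase Alkbh5 had 1.36 in cKO and 2.03 in cHet, and its 3′ UTR peak 1.52 in cKO and 1.54 in cHet. The cap enzyme Pcif1 had 1.52 in cKO and 2.71 in cHet.

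Limb patterning genes, the transcription factors and signals that set the axes of the bud, showed a wide gap. Of 29 with a peak in both lists, 27 had a lower strongest peak in cKO (24 with centred lists), with medians of 2.07 in cKO and 3.06 in cHet. At 43 of their 89 shared peaks the cKO value was lower by at least 1 unit, against 18.5% of all shared peaks. At none was it higher by as much, which is near the 1.13% of all shared peaks. The list had 101 cKO peaks and 74 cHet peaks, so a cHet peak can stand in several of these pairs. Hoxd11, a posterior Hox gene of the forearm and hand region, had 1 peak over the same interval in both lists (chr2:74683446-74684763, mm10, stop codon), at 1.86 in cKO and 3.99 in cHet. Its input was 17.8, 20.7 and 19.7 FPKM in cKO and 18.4, 17.8 and 20.3 FPKM in cHet, which overlap and did not pass the test (log2 change 0.04, SE 0.0780, adjusted p = 0.702, limma). Msx1, a homeobox gene of the distal mesenchyme, had 2.04 in cKO and 3.87 in cHet, and Twist1, a mesenchymal bHLH factor, 2.13 in cKO and 3.88 in cHet. Hoxd13 had 2.26 in cKO and 3.16 in cHet. The forelimb factor Tbx5 had 2.03 at its stop codon in cKO and 3.05 in cHet, while its 5′ UTR peak had 2.23 in cKO and 1.62 in cHet. In input RNA 14 of 27 tested genes of this list were called higher and 3 lower, against 18.7% higher and 17.5% lower of all tested genes.

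Chondrogenic regulators followed, with 12 of 14 lower in cKO (also 12 with centred lists) and medians of 2.27 in cKO and 3.23 in cHet. Their 43 shared peaks had a median difference of -0.23, which was 0.04 with centred lists, so over all their peaks the direction rests on the scaling. Gdf5, the joint and cartilage growth factor in the title of the series, was at 18.8, 17.0 and 15.7 FPKM in cKO input, against 20.3, 20.7 and 24.3 FPKM in cHet input. The cKO libraries all lay below the cHet libraries (log2 change -0.32, SE 0.0944, adjusted p = 0.0363, limma). The call was lost in limma without cKO replicate 2 or 3 and without cHet replicate 2 or 3, with log2 changes of -0.32, -0.26, -0.36 and -0.24. It was also lost after quantile normalization (-0.30) and with no FPKM filter. The cHet list had 1 peak over the whole annotated gene (chr2:155941023-155945367, mm10) at 4.05. The cKO list had 2 within it, at 2.76 over the stop codon (155941023 to 155942222) and 1.67 over the start codon (155942348 to 155945367). Sox9, the master regulator of chondrocytes, had 2.00 at its stop codon (chr11:112785201-112786575) in cKO and 3.21 in cHet, 1.97 in cKO and 1.71 in cHet in its 3′ UTR, and 1.10 in cKO and 1.43 in cHet in an exon.

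The RUNX genes encode transcription factors of blood, cartilage maturation and bone. Runx2 had 6 cKO peaks between 0.83 and 1.89, of which 5 overlapped a cHet peak. At those 5 the cKO value was the lower one, with the exonic pair at 1.89 in cKO and 2.07 in cHet, and the strongest of the 7 cHet peaks (3.15) lay elsewhere. Runx2 input was 2.46, 2.01 and 1.98 FPKM in cKO and 4.12, 3.54 and 3.79 FPKM in cHet (log2 change -0.61, SE 0.0869, adjusted p = 0.00322, limma), with no overlap. Runx3 was at 0.538, 0.535 and 0.399 FPKM in cKO input, against 1.24, 1.46 and 1.89 FPKM in cHet input, with no overlap (log2 change -0.76, SE 0.114, adjusted p = 0.00378, limma). Its 1 cKO peak had 1.71 against 1.79 in its cHet partner. Runx1 was at 0.737, 0.649 and 0.720 FPKM in cKO input and 0.627, 0.723 and 0.572 FPKM in cHet input, which overlap and lay under the level needed for the test. Its peaks went both ways, with 2.35 in cKO and 1.74 in cHet at a 3′ UTR peak, 2.14 in cKO and 2.75 in cHet at the stop codon, and 1.74 in cKO and 3.26 in cHet at an exonic peak. The BMP ligand Bmp2 had 1.86 in cKO and 3.33 in cHet, and the BMP antagonist Nog 2.29 in cKO and 3.25 in cHet.

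Cartilage matrix genes differed less. Of 16 with a peak in both lists, 11 had a lower strongest peak in cKO (8 with centred lists), with medians of 1.88 in cKO and 2.11 in cHet, and 2 of 38 shared peaks were lower by at least 1 unit, against 18.5% of all shared peaks. Their median shared difference was 0.00, or 0.27 with centred lists, with 19 of the 38 shared peaks lower and 19 higher in cKO as deposited. The Acan exonic peak and the Col2a1 stop-codon peak given below each fell by at least 1 unit, so they are not typical of this list. In input RNA, 14 of the 15 tested were called lower in cKO, against 17.5% of all tested genes. Acan, which encodes the main cartilage proteoglycan, was at 2.62, 1.81 and 1.47 FPKM in cKO input, against 4.72, 5.93 and 6.65 FPKM in cHet input. Its levels separated fully (log2 change -1.20, SE 0.166, adjusted p = 0.00308, limma), its long exonic peak had 2.49 in cKO and 3.54 in cHet, and its stop-codon peak 1.78 in cKO and 2.02 in cHet. Col2a1, the main cartilage collagen, was at 44.7, 41.5 and 37.9 FPKM in cKO input, against 52.3, 62.6 and 71.5 FPKM in cHet input, with a stop-codon peak of 1.47 in cKO and 3.18 in cHet.

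The connective tissue matrix list had 16 genes with a peak in both lists, of which 11 were lower in cKO (10 with centred lists), with medians of 1.95 in cKO and 2.78 in cHet. Col1a2, a fibrillar collagen of bone and tendon, had 2.19 at its stop codon in cKO and 3.24 in cHet, and the reverse order at its start codon, 2.13 in cKO and 1.55 in cHet. The list's median shared difference was -0.25, and 0.02 with centred lists. Matrix proteases had medians of 1.53 in cKO and 2.21 in cHet over 8 genes, with a median shared difference of -0.15, and 0.13 with centred lists. Targets of Wnt signalling had 2.22 in cKO and 2.62 in cHet over 12 genes, with a median shared difference of -0.27 as deposited.

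Chromatin regulators, long transcripts with many exonic peaks, had 192 cKO peaks on 25 genes, against 164 in cHet, and 23 of 25 were lower in cKO (21 with centred lists), with medians of 2.41 in cKO and 3.10 in cHet. Of their 161 shared peaks, 45 were lower by at least 1 unit, against 18.5% of all shared peaks. Kmt2d, a histone H3 lysine 4 methyltransferase, had 14 cKO peaks, of which 12 had a cHet partner. It was at 11.1, 9.81 and 10.8 FPKM in cKO input, against 3.32, 3.66 and 5.24 FPKM in cHet input. Its strongest cHet peak, exonic at 3.47, had a cKO partner of 1.89, while its strongest cKO peak, in the 3′ UTR, had 2.05 against 1.64 in cHet. Its input was higher in every cKO library (log2 change 1.21, SE 0.140, adjusted p = 0.00183, limma). In input RNA 19 of the 25 genes were called higher, against 18.7% of all tested genes.

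Other groups stood level or the other way round. Nuclear long noncoding RNAs had medians of 2.40 in cKO and 2.93 in cHet over 10 genes, yet none of their 25 shared peaks was lower by 1 unit, and their median shared difference was -0.02, or 0.25 with centred lists. Malat1, a nuclear speckle RNA with well-known m6A sites, had 3.07 in cKO and 3.13 in cHet, 1.27 in cKO and 1.48 in cHet, and 1.26 in cKO and 1.48 in cHet at its 3 peaks. Its input was 63.7, 37.3 and 46.0 FPKM in cKO and 45.5, 46.1 and 68.8 FPKM in cHet, overlapping widely. Neat1, the scaffold RNA of paraspeckles, had 2.74 in cKO and 2.76 in cHet. Hotair, transcribed from the HoxC cluster, had a cKO peak of 4.40 and none in cHet, at 0.142, 0.232 and 0.117 FPKM in cKO input and 0.126, 0.0583 and 0.124 FPKM in cHet input. At such low levels enrichment rests on few reads, and Hotair was not tested in input.

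Of 46 cytosolic ribosomal protein genes with a peak in both lists, 36 were higher in cKO and 10 lower (6 lower with centred lists), with medians of 2.11 in cKO and 1.91 in cHet. Of their 88 shared peaks 26 were lower in cKO, against 62.4% of all shared peaks. In input RNA 30 of 48 were called lower as deposited, but 3 were called lower and 2 higher after quantile normalization, so no direction is given for their levels. Many ribosomal protein genes have near-identical processed pseudogenes, which could take part of their reads. Of the others, the 9 mitochondrially encoded genes with peaks in both lists, whose RNA is made inside the organelle, were all higher in cKO, with medians of 2.96 in cKO and 2.56 in cHet. mt-Nd2, a complex I subunit, had 3.84 in cKO and 3.50 in cHet, at 212, 183 and 208 FPKM in cKO input and 234, 227 and 179 FPKM in cHet input.

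Marker genes of the kinds of cell that a limb bud can hold were read the same way. Limb mesenchyme markers, of which 6 of 8 also stand on the patterning list, had medians of 2.25 in cKO and 3.16 in cHet. In cKO 6 of 8 genes were lower (also 6 with centred lists). Of their 28 shared peaks 11 were lower by at least 1 unit, against 18.5% of all shared peaks. They had 31 cKO and 23 cHet peaks, so a cHet peak can stand in several pairs here too. Endothelial markers had medians of 2.07 in cKO and 1.95 in cHet, with 0 of 5 genes and 0 of 9 shared peaks lower, as deposited and with centred lists. Epidermal markers had 2.11 in cKO and 1.94 in cHet with 1 of 6 lower, skeletal muscle markers 2.86 in cKO and 2.32 in cHet with 1 of 5 lower, and erythroid markers 1.84 in cKO and 1.59 in cHet with 1 of 6 lower. With centred lists none of these 3 groups had a lower gene. Macrophage markers stood at 2.04 in cKO and 1.46 in cHet with 1 of 5 lower, and neural crest and Schwann markers at 2.65 in cKO and 2.50 in cHet with 2 of 4 lower (0 of 4 with centred lists).

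Among single markers, Pdgfra, a growth factor receptor of mesenchyme, had 1.55 at its stop codon in cKO and 3.15 in cHet, though its 5′ UTR peak was 3.71 in cKO and 3.12 in cHet. Cdh5, the cadherin of endothelial junctions, had 3.43 at its stop codon in cKO and 3.10 in cHet, at 15.5, 14.9 and 15.9 FPKM in cKO input and 16.7, 19.5 and 17.1 FPKM in cHet input. Kdr, the endothelial VEGF receptor, had 3.16 in cKO and 3.00 in cHet, and Myod1, the myogenic factor, 2.91 in cKO and 2.44 in cHet. Krt5, a keratin of the basal epidermis, had 1.42 in cKO and 1.33 in cHet at its shared exonic peak.

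The amounts of these markers in input RNA differed too. Summed levels were 510 to 593 FPKM in cKO and 395 to 410 FPKM in cHet for limb mesenchyme, 33.7 to 37.5 FPKM in cKO and 41.2 to 46.0 FPKM in cHet for endothelium, 157 to 166 FPKM in cKO and 132 to 153 FPKM in cHet for epidermis, and 209 to 339 FPKM in cKO and 359 to 392 FPKM in cHet for skeletal muscle. These 4 did not overlap between genotypes, though a sum weighs the most abundant genes most. Gene by gene, limma called 4 of 7 tested limb mesenchyme markers higher and 0 lower, and 2 of 5 endothelial markers lower and 0 higher. Over all tested genes 18.7% were called higher and 17.5% lower. Of 6 epidermal markers 1 was called higher and 1 lower, near those shares. The endothelial count fell to 1 without cKO replicate 2, without cHet replicate 2 and with the replicate number as a block. Of 5 skeletal muscle markers 4 were called lower, but 0 without cHet replicate 2. The sums were 5462 to 12312 FPKM in cKO and 7091 to 9839 FPKM in cHet for erythroid cells, 11.1 to 12.3 FPKM in cKO and 10.2 to 13.5 FPKM in cHet for macrophages, and 11.7 to 12.3 FPKM in cKO and 12.1 to 13.4 FPKM in cHet for neural crest and Schwann cells, and these overlapped. No listed marker was at 0, so the samples hold RNA of all 7 kinds of cell, and mesenchyme defines the labelled tissue. The part of these amounts in the enrichment values was not tested.

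Input RNA was last set against the number of cKO peaks per gene. Of 13575 genes tested by limma, 2535 (18.7%) were called higher in cKO and 2377 (17.5%) lower. Among the 12265 with a cKO peak, 2459 (20.05%) were higher and 2155 (17.6%) lower, which is near the share of all genes. Leaving out cHet replicate 2 lowered the counts over all genes to 1504 higher and 1265 lower, leaving out cKO replicate 2 to 1613 and 1407, and leaving out cKO replicate 3 brought those called higher to 1669. The number of peaks made more difference. Of 1310 genes without a cKO peak, 5.802% were called higher and 16.9% lower, and of 2355 with 1 peak, 12.3% and 23.9%. With 3 peaks it was 19.98% and 17.3% of 2572 genes, and with 6 or more 30.6% (418 genes) and 7.68% (105 genes) of 1368. The share called higher at 6 or more peaks was 17.8% without cHet replicate 2, 19.7% without cKO replicate 2 and 19.7% without cKO replicate 3, and at 0 peaks it was 3.28% without cHet replicate 2 and 3.66% without cKO replicate 2.

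**Figure D5:**
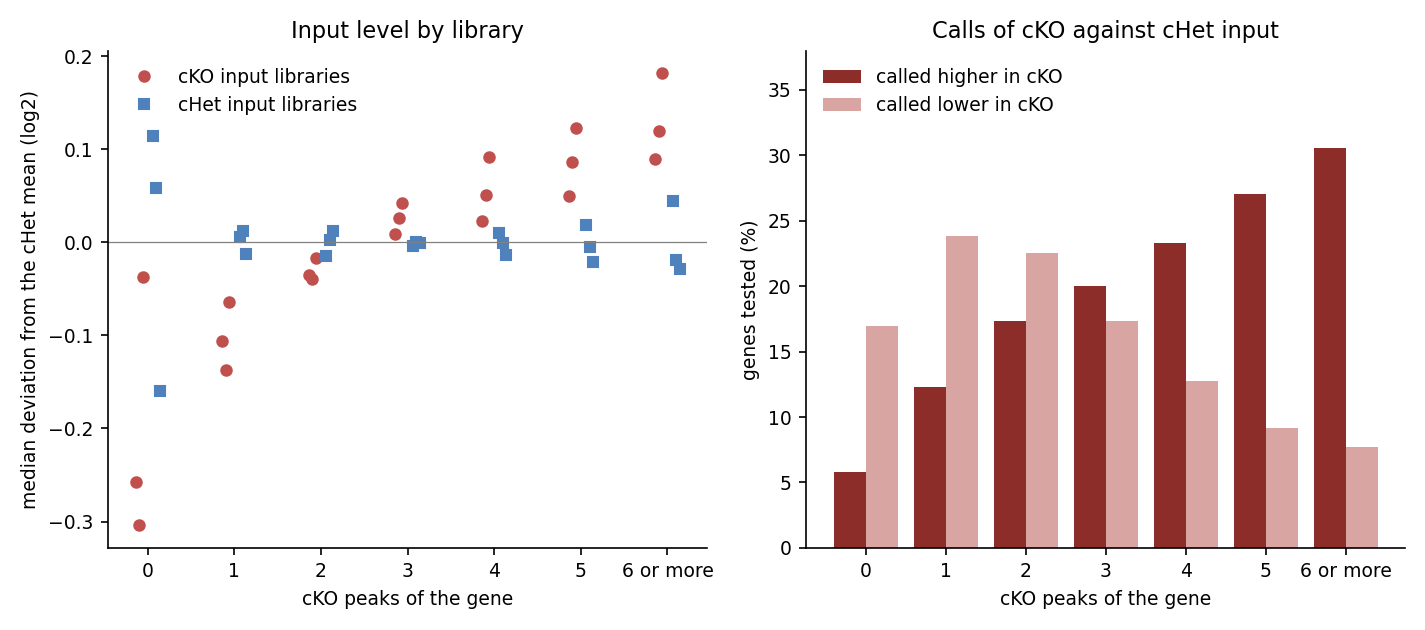
Input RNA by number of cKO peaks per gene, with the median log2 deviation of each library from the cHet mean (left, 1 point per library) and the percent of tested genes called higher or lower in cKO by limma at an adjusted p under 0.05 (right). At 6 or more peaks the 3 cKO libraries lie above the 3 cHet libraries, and the share called higher is 5.802% at 0 peaks and 30.6% at 6 or more.

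The median log2 change was -0.23 without a peak, -0.10 with 1 peak, 0.03 with 3 and 0.13 with 6 or more. Per library, genes with 6 or more peaks stood at a median of 0.09, 0.12 and 0.18 in cKO and 0.04, -0.02 and -0.03 in cHet, as log2 deviations from each gene's cHet mean, so the cKO libraries all lay above the cHet libraries. Genes without a peak stood at -0.26, -0.30 and -0.04 in cKO and 0.11, 0.06 and -0.16 in cHet, which overlap. Grouped by number of cHet peaks, the share called higher was 5.83% at 0 and 30.3% at 6 or more, so the relation is not particular to the cKO list. Gene length runs with the number of peaks, with a median of 578.5 bases at 0 cKO peaks and 69500.5 at 6 or more. Within genes over 100 kb the share called higher was 16.5% at 1 or 2 peaks, 21.1% at 3 to 5 and 35.0% at 6 or more. The cKO input libraries enter both the calling of these peaks and the input comparison, so the relation is a description with no test, and the part of gene length, level and shared libraries in it was not tested further.

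The genes with the largest input changes among those with a cKO peak follow no single pattern of enrichment. Zfp292, a zinc finger gene, was at 40.6, 48.7 and 54.8 FPKM in cKO input, against 16.7, 11.1 and 10.9 FPKM in cHet input. It rose by 1.83 on the log2 scale (SE 0.178, adjusted p = 0.00115, limma), and its strongest peak was 2.49 in cKO and 3.65 in cHet. Inka1, an inhibitor of PAK4 kinase, was at 67.7, 62.8 and 59.3 FPKM in cKO input, against 19.1, 20.6 and 20.1 FPKM in cHet input, with 1.52 in cKO and 3.49 in cHet. Papss2, which makes the sulfate donor for cartilage proteoglycans, was at 6.25, 5.99 and 5.18 FPKM in cKO input, against 24.8, 22.4 and 22.7 FPKM in cHet input. It fell by 1.84 on the log2 scale (SE 0.0795, adjusted p = 3.10e-04, limma). Its start-codon peak had 1.61 in cKO and 1.31 in cHet, and a peak at the 3′ end 1.40 in cKO and 1.61 in cHet. Dcn, the small proteoglycan decorin, was at 5.18, 3.52 and 4.39 FPKM in cKO input, against 13.2, 16.1 and 17.9 FPKM in cHet input, with 1.75 in cKO and 1.62 in cHet. All 4 genes separated the genotypes in every library.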

How the data were processed

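RNA of E12.5 limb buds was profiled by m6A-seq in 4 groups (cKO IP, cKO input, cHet IP, cHet input) of 3 libraries each, grouped by the labels' genotype. Reads were handled with fastp and HISAT2 on mm10, per the submitters' processing notes. The sources used here name neither the peak caller, its scaling, the FPKM program nor its use of strand. Per the file headers, the authors deposited 6 columns of FPKM, 1 per input library, over 31723 genes. The authors' deposited peak lists, 1 per genotype, give a log2 fold enrichment, a p-value and an adjusted p-value per peak. Peak starts were raised by 1 base to 1-based positions, since 6859 of them lay 1 base before a gene's start.

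Input RNA was compared with limma 3.58.1 in R 4.3.3 (lmFit, eBayes with trend, two-sided) on log2(FPKM + 1), for genes that averaged 1 FPKM or more across the 6 libraries, at a Benjamini-Hochberg adjusted p under 0.05. This scale understates changes of low genes. The labels call the replicates biological but name no animals, so p-values measure the spread between these samples. Peaks were joined and overlapped (at least 1 base, same strand) in Python 3.11.15 with pandas 2.3.3, numpy 2.4.6 and scipy 1.17.1, and plotted with matplotlib 3.10.9. A list is described by counts and medians, set beside the share over all genes or all shared peaks. Of the per-sample columns, 0 were left out for want of a sample. Of 16577 gene symbols in the cKO list, 15358 were found in a RefSeq table of GRCm38.p6, whose start sequences were used.

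The members and the 21 gene lists (255 symbols, 254 found) were chosen with earlier results of these data known, so their directions are no independent evidence. Named genes were those of the lists, Mettl14, and the top of each ranking: 10 by number of peaks, by enrichment and by level with and without a peak, 5 by span, 5 by enrichment in each class, 10 rises and 10 falls of enrichment at peaks with 1 partner each, and 5 input rises and 5 input falls among called genes with a cKO peak. Vcan was named after its values were seen. Alternatives were stricter peak thresholds, other overlaps, pseudocounts, FPKM filters, quantile normalization, the replicate number as a block, and leaving out each library. A search for the m6A motif inside peaks needs the genome sequence and was not run.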

Additional observations from a re-analysis of the deposited data

How the results depend on the processing

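Limits: each genotype has 1 peak list whose scaling is not given, so differences of enrichment have no replicate error, and read depth is unknown. With lists centred on their own medians, an alternative chosen after seeing the data, the median difference of shared peaks turned to 0.092, that of 3′ UTR peaks to 0.13 and that of start-codon peaks to 0.26, while stop-codon peaks kept -0.22; the cause was not tested. With 1 partner each it was -0.086 over all peaks, -0.42 at stop codons and 0.034 at start codons, and with an adjusted p under 1e-05 in both lists -0.20. Span as a sum of blocks was not run, since the lists give no blocks.

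Keeping peaks of at least 4-fold left 14242 peaks on 10319 genes, with 28.1% of genes at 2 or more peaks, 29.4% of peaks in 3′ UTRs, 26.2% at stop codons, a median log2 of 2.46 and a median span of 1262.5 bases, as fewer peaks enter. An adjusted p under 1e-05 gave 67.6%, 38.1%, 17.0%, 1.70 and 800 bases in the same order. The share of genes with 2 or more peaks was 68.2% after merging peaks within 100 bases and 80.9% over genes of at least 1 FPKM. The median of each gene's strongest peak was 2.19. The share of genes with a cKO peak was 77.7% at 0.1 FPKM or more, 93.9% at 5 FPKM or more and 90.3% to 91.0% without 1 library. The rank correlation of enrichment with level ran from -0.0856 to -0.0833 without 1 library. The share of cKO peaks that met a cHet peak was 78.7% when 50% of the shorter peak had to overlap and 55.6% when 50% of both had to.

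Same-numbered input libraries did not deviate together (correlations of -0.08, 0.04 and -0.20 for replicates 1, 2 and 3). With 3 libraries per group this cannot decide whether equal numbers share a litter or batch, which the labels do not say. With the replicate block, 1564 genes were called higher and 1325 lower, 1520 and 1167 among genes with a cKO peak, with 3.36% higher at 0 peaks and 18.8% at 6 or more. At 5 FPKM or more 1619 were called higher, 1597 of them with a cKO peak. Without the FPKM filter 1.06% were higher at 0 peaks and 20.3% at 6 or more. Without 1 library, 1504 to 2593 genes were called higher and 1265 to 2528 lower, 1461 to 2514 and 1157 to 2195 among genes with a cKO peak, with 3.28% to 6.03% higher at 0 peaks and 17.8% to 31.4% at 6 or more. Quantile normalization turned the sign of 6 of 302 named genes, Rpl5 (0.0061), Rpl11 (0.030), Rpl23 (0.039), Rps9 (0.26), Rps23 (0.18) and Rps24 (0.083), and ended 40 calls, and the block ended 59, that of Gdf5 among both.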
